A study of Mus musculus with 99 samples.

Results

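A set of 10 genes that were silent or nearly silent in outer hair cells and read in most converted cells was followed across single cells of the mouse cochlea: Lce6a, 2210017I01Rik, Slc10a7, Cd59a, Tpbgl, Shtn1, Slc7a14, Akr1cl, Ccn1 and Zyx. They were picked as little-studied genes with 0 or 1 counts over all outer hair cells and reads in more than 50% of the converted cells. The counts of this same comparison chose them, so their difference between the groups is a description and was not tested. Of the 26782 genes with any read, 103 met the count rule, which is 0.385%, and the 10 genes are a hand-picked set of those 103. The table held 55291 genes in all.

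The study asked how far Tbx2, a T-box transcription factor, can turn outer hair cells (OHCs) into inner hair cells (IHCs). The first group was 32 OHCs of C57BL/6 mice at postnatal day 30 with the alleles Slc26a5-CreER/+; Ai9/+, in which the promoter of the OHC motor protein gene Slc26a5 drives an inducible Cre and Ai9 gives the red protein tdTomato. The second group was 67 converted cells (cIHCs) at postnatal day 42 from Slc26a5-CreER/+; Rosa26Tbx2/+ mice, in which the same Cre turns on ectopic Tbx2. All cells were red, picked by hand and sequenced one by one as full-length cDNA with the Smart-Seq HT kit. Age and genotype differed together and cannot be told apart, and no title names a native IHC. The protocol text, given alike for all the cells, also mentions endogenous IHCs and iOHCs; groups follow the titles. As no animal is named in the labels, a group counts as 1 sample and no p-value is given. OHCs of an earlier study that the design text mentions were not analysed here.

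OHCs amplify sound by changing their length, whereas IHCs release glutamate onto the auditory nerve. Tbx2 is known as a factor that IHCs need to keep their identity, and oncomodulin (Ocm), a calcium-binding protein, marks mature OHCs. Several of the 10 genes belong to families best known from other tissues. Lce6a lies among the late cornified envelope genes of the skin, Cd59a encodes a membrane-anchored inhibitor of the complement pore, Shtn1 encodes shootin 1, which couples actin flow to adhesion in growing axons, and Ccn1 encodes a secreted matrix protein that is a well-known target of the co-activators YAP and TAZ. Zyx encodes zyxin, a LIM-domain protein of focal adhesions.

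Total counts per cell were 5656512 to 9287413 in OHCs (median 7443782) and 4677682 to 13792672 in cIHCs (median 7757517). The number of genes with reads differed more, with a median of 6068.5 per OHC and 8546 per cIHC. Its part in the zeros of the OHCs was not tested. Levels are given as CPM, a cell's counts scaled to a common total, or as pooled CPM over the summed counts of a group. The labelled types were checked against markers. The 9 OHC markers summed to 55563 pooled CPM in OHCs and 1031 in cIHCs, and the 8 IHC markers to 2560 and 12448. Xist was read in 55 of the 67 cIHCs and Y-linked genes in the other 12, which puts at least 2 animals behind the group. The 12 cells with Y-linked reads are those numbered 1 to 12 in the titles, and they had fewer counts (median 6641388 against 8098521) and a larger mitochondrial share (median 5.65% against 3.19%). Sex, animal and the numbering of the cells cannot be told apart, and levels and the main correlations within each of these sets are given beside the results.

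One library stood apart. In the cIHC numbered 22, 7 of the 10 genes were under 10 CPM, whereas no other cIHC had more than 2 of them under that level: 32 cells had 0, 22 cells had 1 and 12 cells had 2. That cell held 7263083 counts, near the median of the cIHCs, but 7284 genes with reads, fewer than the cIHC median of 8546. It had the most Ocm of any cIHC (4718 CPM, against 17896 to 62656 CPM in OHCs), and also the most Lbh (91.8 CPM), another OHC gene, while Slc26a5 was at 0 and Sri, the most abundant OHC marker in cIHCs, was low (215 CPM, rank 63 of 67). Of the IHC genes, Slc17a8 was at 1373 CPM, Otof at 3115, Calb2 at 4243 and Cabp2 at 3167 (cIHC medians 1093, 2842, 3854 and 2616), whereas Atp2a3 was at 631, rank 60 of 67 (median 1269). Pou4f3, a gene of both hair cell types, was at 1293 CPM, the highest of any cIHC. Ptprz1, a gene outside the set with no OHC reads, was at 282 CPM, rank 37 of 67 (median 304). The profile of cIHC 22 had the lowest median correlation with the other cIHCs (Spearman rho 0.44), but cIHC 62 was close at 0.46. Its median correlation with OHCs was 0.39, and that of cIHC 26 was 0.38. The levels of the 10 genes, their rho with Tbx2 and Ocm and the 11 pairs of genes outside the percentiles given with them were also computed without cIHC 22.

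The start of 4 of the 10 genes lies on chromosome 3, and among these Lce6a adjoins 2210017I01Rik, with both read from the same strand. Stretches just upstream of the first annotated base are shown for 3 genes, chosen for what the results turn on: the most abundant gene, the gene most closely related to Tbx2 and the textbook YAP target. They are RefSeq promoter sequences of GRCm38.p6, written 5′ to 3′ on the gene's strand, for Lce6a at chr3:92621661-92621910 on the minus strand, for Slc10a7 at chr8:78509078-78509322 on the plus strand and for Ccn1 at chr3:145649986-145650235 on the minus strand. Capitals mark matches to a T-box core (GGTGTG), to the TEAD motif (CATTCC) and to a TATA box (TATAAA), each searched on both strands, so that GGAATG and TTTATA are matches on the other strand.
Lce6a: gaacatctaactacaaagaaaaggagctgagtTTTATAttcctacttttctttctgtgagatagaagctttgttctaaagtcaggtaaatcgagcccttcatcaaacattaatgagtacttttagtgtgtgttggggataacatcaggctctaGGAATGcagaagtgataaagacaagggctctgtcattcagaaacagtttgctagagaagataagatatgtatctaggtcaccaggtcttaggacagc
Slc10a7: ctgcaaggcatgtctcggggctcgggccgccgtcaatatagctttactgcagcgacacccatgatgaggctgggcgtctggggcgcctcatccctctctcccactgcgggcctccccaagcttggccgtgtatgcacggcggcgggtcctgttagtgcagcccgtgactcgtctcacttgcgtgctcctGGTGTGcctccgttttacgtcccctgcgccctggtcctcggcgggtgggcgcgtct
Ccn1: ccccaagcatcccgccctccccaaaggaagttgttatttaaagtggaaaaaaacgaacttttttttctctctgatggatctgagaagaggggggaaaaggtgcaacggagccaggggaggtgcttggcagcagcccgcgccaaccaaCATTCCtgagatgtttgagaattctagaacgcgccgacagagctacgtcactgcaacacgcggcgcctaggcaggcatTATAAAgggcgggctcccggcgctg
Ccn1 held a TATA box 25 bases and a TEAD match 103 bases before its first annotated base, and Lce6a a TEAD match 97 bases and a TATA match 218 bases before its own, both of the latter on the other strand. Slc10a7 held a T-box core 56 bases before its first annotated base. The first annotated base is that of RefSeq here, while gene coordinates given further below are those of GENCODE unless named otherwise. RefSeq promoters, of 250 bases before and 50 after a start, were found for 8 of the 10 genes. Shtn1 and 2210017I01Rik had no entry. The T-box core was in 2 of these 8 (Slc10a7 and Cd59a), and in 19% of 32851 promoters of the same length. In Cd59a the matches lay 23 and 12 bases before the start used for its promoter. Both are downstream of the first base of the longer RefSeq gene. The longer T-box element AGGTGTGA, which contains that core, was in 0 of the 8 and in 1.28% of all. CATTCC was in 2 of the 8 and 14.7% of all, the AP-1 motif TGACTCA in 1 (Zyx) and 5.2%, and TATAAA in 2 and 13.6%. A match describes letters in this window, and binding was not measured.

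In the OHCs, 9 of the 10 genes had no read in any of the 32 cells, and Cd59a had 1 read in 1 cell. A total of 3 counts over the whole group, the floor used here, is 0.0124 pooled CPM. The 1899 genes with pooled OHC levels between 89.9 and 750 CPM, the range the 10 genes span in cIHCs, had reads in a median of 90.6% of the OHCs. That share describes genes of such a level, and the zeros of the 10 genes came from the rule that chose them. With the OHC sum set to that floor, the log2 ratio of cIHC over OHC was 12.83 for Akr1cl, the lowest of the 10, and 15.89 for Lce6a. These ratios are not lower bounds. The upper end of the exact 95% Poisson interval was 0.0152 pooled CPM for 0 reads and 0.0230 for Cd59a, above the floor. In 5 of the 10 genes (Lce6a, 2210017I01Rik, Slc10a7, Tpbgl and Zyx) every cIHC was above every OHC. This held for 0.0797% of the 10041 genes at 10 pooled CPM or more in either group, but the choice of the 10 genes used the same counts, so nothing is read from it. The genes next to the limits of the rule were Ano4 and Id1 with 2 OHC counts (159 and 137 pooled CPM in cIHCs), Tbx2 itself and Itgal with 3 (731 and 37.2), and Amotl1 and Dleu7, each with reads in 34 of the 67 cIHCs, on the inner side. Cat and Nat1, with reads in 33 cIHCs, lay just outside.

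**Figure D1:**
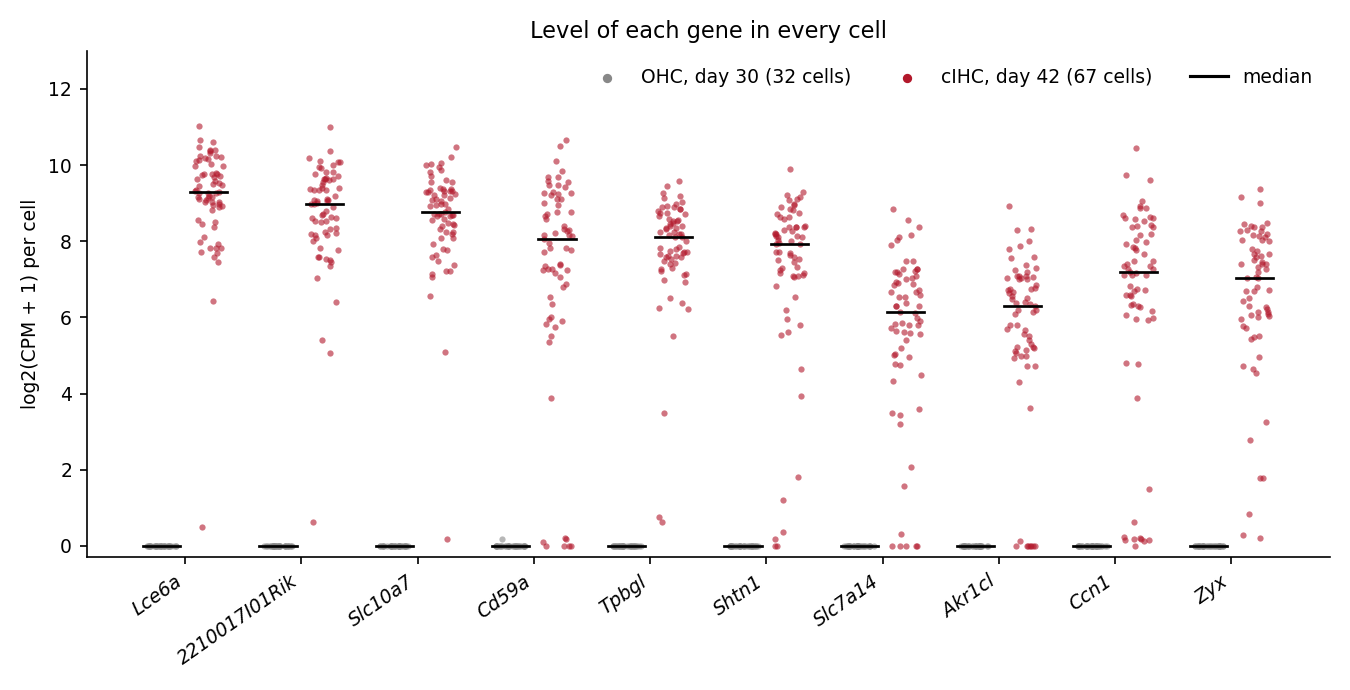
Level of each of the 10 genes in every cell, as log2(CPM + 1), with 32 OHCs in grey, 67 cIHCs in red and a black line at the median of each group. The OHCs lie at 0 for every gene but for 1 cell with 1 read of Cd59a, and Lce6a, 2210017I01Rik and Slc10a7 each have a single cIHC near 0, which is the cell numbered 22.

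Lce6a, the late cornified envelope gene, had the highest level of the 10. It was 0.413 CPM in the lowest cIHC, 624 in the median cell and 2064 in the highest, and 66 of 67 cells were at 10 CPM or more. The only cell below that was cIHC 22, with 3 reads, and the next lowest was cIHC 10 at 85.7 CPM. Its neighbour 2210017I01Rik, a predicted protein-coding gene without a name of its own, ran from 0.551 CPM through a median of 505 to 2041, again with only cIHC 22 under 10 CPM. The highest cell was the same for both genes, cIHC 66. GENCODE M21, on GRCm38, places Lce6a on chromosome 3 from 92620081 to 92621660 and 2210017I01Rik from 92604718 to 92607492, both on the minus strand and 12589 bases apart. The RefSeq model of Lce6a spans 92604821 to 92621660 and so reaches over both. Whether reads counted under the 2 names come from 1 transcript was not tested.

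Apart from 2210017I01Rik, which lies between Lce6a and Smcp and was not on the list used here, the skin gene cluster did not accompany Lce6a. Of the 39 other genes listed for the late cornified envelope and the epidermal differentiation complex, 28 had no read in any cell and 0 reached 10 pooled CPM in either group. Lce1a1, which adjoins Lce6a on the other side at a distance of 24875 bases, had 0 counts in OHCs and 0.114 pooled CPM in cIHCs. Skin cell markers summed to 33.7 pooled CPM in OHCs and 25.3 in cIHCs, 98.2% of it Krt10 and 4 of the 7 markers at 0 in both groups. Per kilobase of merged exon, Lce6a reached 944 CPM, rank 36 of the 7191 genes compared, and 2210017I01Rik 700 CPM, rank 51.

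Slc10a7 and Slc7a14 are the 2 solute carriers of the set. Slc10a7 belongs by sequence to the bile acid transporter family and is known for a part in calcium handling and in the skeleton. It ran from 0.138 CPM in the lowest cIHC through a median of 434 to 1412, with 66 of 67 cells at 10 CPM or more. It lies on chromosome 8 from 78509346 to 78734003. Its lowest cells were cIHC 22 with 1 read and cIHC 10 with 33.2 CPM. The gene adjoining it at 448 bases, Rbmxl1, was read in both groups (7.90 pooled CPM in OHCs and 37.2 in cIHCs). The other 6 genes of the SLC10 family did not join it. A single one of them was above 10 pooled CPM in a group, and that one, Slc10a1, the liver bile acid importer, was lower in cIHCs (28.2 pooled CPM in OHCs, 1.26 in cIHCs).

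Slc7a14, a relative of the cationic amino acid transporters that is known from inherited loss of photoreceptors, was far less even. It was at 0 in 5 cIHCs, had a median of 69.5 CPM and reached 459, and 57 of 67 cells were at 10 CPM or more. It lies on chromosome 3 from 31202858 to 31310378. The highest cell was cIHC 10, the cell with the second-lowest Lce6a and Slc10a7. Of the 14 other SLC7 genes, 4 were above 10 pooled CPM. Slc7a4 was higher in cIHCs (7.82 pooled CPM in OHCs, 70.0 in cIHCs, a log2 ratio of 3.16), and Slc7a6 (27.4 and 21.4) lay within a log2 ratio of 1.

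Cd59a and Tpbgl encode proteins of the cell surface. Cd59a was at 0 in 4 of 67 cIHCs, with a median of 265 CPM and a highest value of 1620, and 60 cells were at 10 CPM or more. Its 7 low cells held 0 or 1 read each. The 5 cIHCs with the most Ocm (22, 32, 10, 52 and 26, at 4718, 2416, 1937, 1545 and 1137 CPM) were all among those 7, whereas 60 of the other 62 cells were at 10 CPM or more. The remaining low cells were cIHC 16, with 174 CPM of Ocm, and cIHC 44, with 0.218 CPM of Ocm and the highest Tbx2 of all cells (2643 CPM). This way of looking at Cd59a was chosen after its values were seen. Cd59a lies on chromosome 2 from 104095801 to 104115354. Its neighbour and paralog Cd59b, 4614 bases away on the same strand, had 57 counts in 1 OHC and 53.2 pooled CPM in cIHCs, with reads in 62 of 67 cells. Whether reads shared by these related genes were split between them in the counting was not tested. The rho of Cd59a with Cd59b over cells was 0.36.

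Among the other complement genes listed, 5 of 22 were above 10 pooled CPM, of which 2 were higher in cIHCs and 0 lower. These were Cd59b and Cfi, which encodes complement factor I (1.46 pooled CPM in OHCs, 14.2 in cIHCs). The most abundant of the list, Clu, which encodes the chaperone clusterin, was at 568 pooled CPM in OHCs and 381 in cIHCs, within a log2 ratio of 1.

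Tpbgl encodes a membrane protein with leucine-rich repeats, like that of the trophoblast glycoprotein. It was the most even member beside Lce6a and Slc10a7, from 0.550 CPM in cIHC 36 through a median of 277 to 764, and 65 of 67 cells were at 10 CPM or more. Its single exon, on chromosome 7 from 99624082 to 99627103, shares 1168 bases with the non-coding gene Gm10605 on the opposite strand. Gm10605 had 0 counts in OHCs and 155 pooled CPM in cIHCs, so it met the same count rule. Since no strand setting is stated, reads of the pair cannot be told apart. The rho between them over cells was 0.10. Of the other leucine-rich repeat genes listed, 3 of 21 were above 10 pooled CPM: Flrt1 (log2 ratio 2.69) and Flrt3 (1.63 pooled CPM in OHCs and 17.4 in cIHCs) were higher in cIHCs and Lingo3 (64.9 and 6.31) was lower.

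Shtn1 and Zyx encode proteins that tie the actin cytoskeleton to adhesion sites. Shtn1 was at 0 in 2 cIHCs, had a median of 244 CPM and a highest value of 948, and 61 of 67 cells were at 10 CPM or more. It lies on chromosome 19 from 58973356 to 59076100. Of the 11 other genes listed as its partners, 6 were above 10 pooled CPM, 3 of them higher in cIHCs and 1 lower. Cttn, which encodes the actin-binding protein cortactin, was at 60.2 pooled CPM in OHCs and 138 in cIHCs. Cdc42, a small GTPase, was at 266 and 437, and Pak1, a kinase that acts below it, was at 79.7 and 27.9.

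Zyx had reads in all 67 cIHCs, from 0.145 CPM through a median of 130 to 657, and 60 cells were at 10 CPM or more. It lies on chromosome 6 from 42349630 to 42360213, and its exons share 236 bases with Epha1 on the opposite strand, which had 14.6 pooled CPM in cIHCs. The focal adhesion list around it moved in both directions: of 14 other genes above 10 pooled CPM, 6 were higher in cIHCs and 4 lower. Tln2, which encodes a talin that links integrins to actin, went from 2.26 pooled CPM in OHCs to 158 in cIHCs (log2 ratio 6.13). Lpp, the LIM protein most like zyxin, went from 0.0289 to 88.7 and had reads in 64 of 67 cIHCs. Limd1, another LIM protein, went the other way, from 113 to 33.2, and Enah, an actin regulator that binds zyxin, lay at 181 and 250, within a log2 ratio of 1. Over cells, Zyx and Lpp had a rho of -0.07.

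Ccn1 had the highest coefficient of variation of the 10 genes, while the ratio of upper to lower quartile was higher in Cd59a (5.44 against 4.55). Ccn1 was at 0 in 1 cIHC, had a median of 146 CPM and reached 1391 in cIHC 30, which alone held 12.4% of its reads, and 57 of 67 cells were at 10 CPM or more. Its 10 low cells had at most 16 reads each, and these included none of the 5 cells with the most Ocm. It lies on chromosome 3 from 145646976 to 145649981. The non-coding gene Gm17501, 331 bases away, was read in 32 cIHCs and had a rho of 0.00 with Ccn1. Among the other genes of the CCN family and of the YAP and TEAD pathway, 7 of 19 were above 10 pooled CPM, 4 of them higher in cIHCs and 1 lower. Wwtr1, which encodes the co-activator TAZ, went from 6.41 to 64.2 pooled CPM (log2 ratio 3.32), and Crim1 from 0.698 to 35.2. Amotl2, an inhibitor of the pathway, was lower (111 and 18.2), and the kinase Lats1 lay at 60.2 and 56.1. Amotl1, on the same list as Amotl2, went the other way, from 1 count in OHCs to 31.1 pooled CPM in cIHCs (log2 ratio 11.29). The activity of the pathway was not tested. Ccn2, the close relative and fellow YAP target, was low in both groups (2.58 and 10.7 pooled CPM) with reads in 14 of 67 cIHCs, and its rho with Ccn1 was 0.07.

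Akr1cl, an aldo-keto reductase gene, was at 0 in 7 cIHCs, with a median of 78.4 CPM and a highest value of 484, and 59 of 67 cells were at 10 CPM or more. Its 8 low cells held 0 or 1 read and included cIHC 44 and cIHC 31, the 2 cells with the most Tbx2 (2643 and 2553 CPM). It lies on chromosome 1 from 65012689 to 65032759. An overlapping pseudogene, Gm8550, shares 494 bases with its exons and had 0.531 pooled CPM. Of the other aldo-keto reductases, 6 of 16 were above 10 pooled CPM, 3 of them higher in cIHCs and 0 lower. Akr1a1 went from 64.8 to 368 and Akr1e1 from 18.8 to 77.1, whereas the most abundant, Akr1b3, which encodes aldose reductase, was at 775 and 1092.

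Over all 9 lists, 46 of 169 other family genes were above 10 pooled CPM in a group. Of these, 21 were higher in cIHCs by a log2 ratio of at least 1, which is 45.7% against 26.3% of all 10041 genes at that level, and 8 were lower, 17.4% against 14.3%. Their median log2 ratio was 0.67, and that of all genes was 0.25. The lists were chosen with results of these cells known, so these counts describe the relatives and no difference from other genes was tested.

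**Figure D2:**
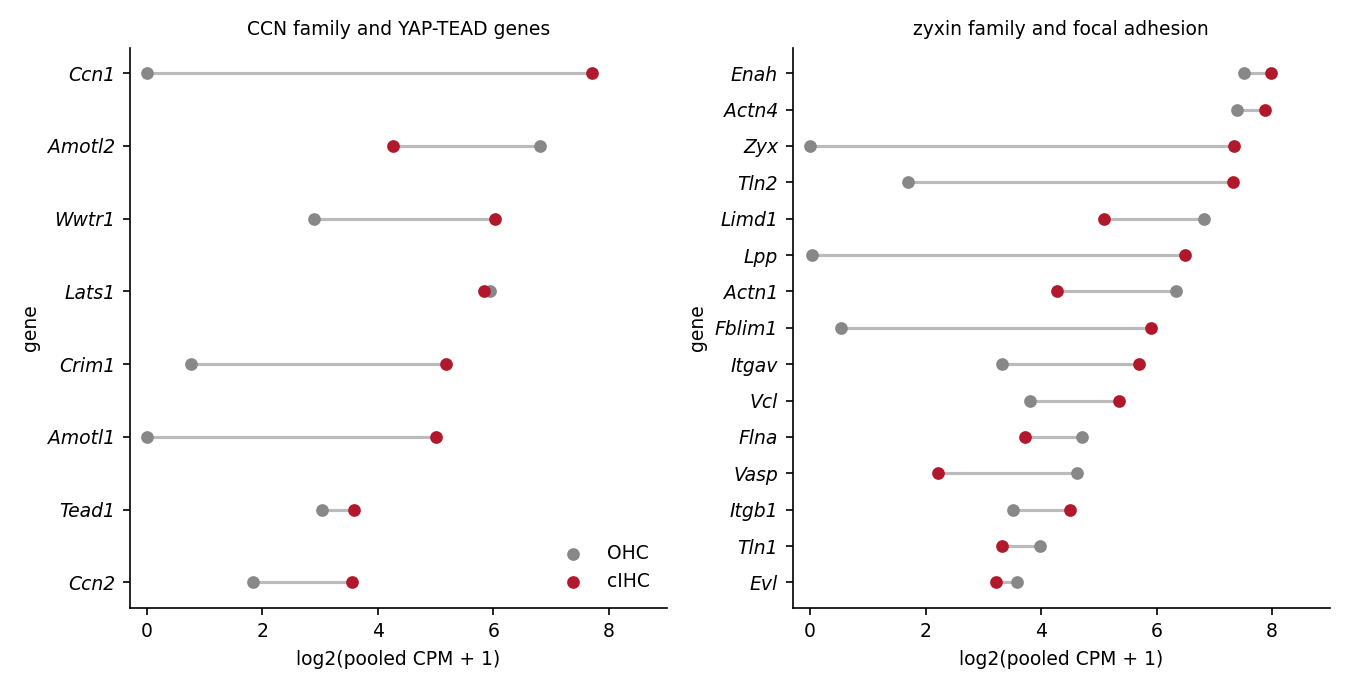
Pooled level in OHCs (grey) and cIHCs (red), as log2(pooled CPM + 1), for the genes of the CCN and YAP-TEAD list and of the zyxin and focal adhesion list with at least 10 pooled CPM in a group, Ccn1 and Zyx included. Ccn1 and Zyx start at 0 in OHCs, and genes such as Amotl2 and Limd1 run in the opposite direction.

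Per kilobase of exon, the pooled levels ran from 944 CPM in Lce6a and 700 in 2210017I01Rik through 197 in Cd59a, 103 in Ccn1, 99.9 in Tpbgl, 54.2 in Slc10a7, 42.1 in Shtn1, 30.0 in Zyx and 21.4 in Akr1cl to 9.55 in Slc7a14. The middle 50% of cells of neighbours in this order overlapped at every step but one, that from 2210017I01Rik to Cd59a. In CPM, the coefficient of variation over cells was lowest in Tpbgl, Lce6a and Slc10a7 (0.58 each) and highest in Ccn1 (1.10), Slc7a14 (0.98), Cd59a (0.97) and Akr1cl (0.94). Low genes vary more between cells, so each was set beside all genes with a mean within 1.5 times its own. All 10 were above the median of such genes. Ccn1 lay at percentile 97.8 of them and Cd59a at 96.9 (medians 0.61 and 0.50), whereas Tpbgl lay at 62.7 and Akr1cl at 69.3. Thinned to 5770000 reads a cell, which left 66 cIHCs, the genes still had reads in 89.4% (Akr1cl) to 100% of the cells.

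The levels differed between cIHCs with Xist reads and cIHCs with Y-linked reads. Lce6a had a median of 731 CPM in the 55 former and 341 in the 12 latter cells, and 0 of those 12 reached 731. Tpbgl was likewise at 318 and 188 CPM, with 0 of 12 above the median of the others. In the same order, the medians were 539 and 333 CPM for 2210017I01Rik, 496 and 344 for Slc10a7, 288 and 159 for Cd59a, 254 and 149 for Shtn1, 80.1 and 56.03 for Akr1cl, and 130 and 155 for Zyx. Slc7a14 (58.6 and 137 CPM) and Ccn1 (138 and 256 CPM) were higher in the cells with Y-linked reads. Tbx2 had medians of 607 and 445 CPM and Ocm of 1.51 and 60.5 in the same cells. As no animal is named, this difference was not tested.

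Most of the 10 genes did not vary together from cell to cell. Over the 45 pairs, the median Spearman rho across 67 cIHCs was 0.07, and that of the 10 genes with all 7285 genes compared was 0.01. Of the 45 pairs, 10 lay above the 95th percentile of those values (0.25), where 5% of pairs with any gene lie, and 1 below the 5th (-0.23). All points share a library's depth, and the levels of Lce6a, Tpbgl, Slc10a7 and 2210017I01Rik had rho of 0.40, 0.39, 0.37 and 0.33 with total counts.

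The closest pair was that of the neighbours Lce6a and 2210017I01Rik (rho 0.58, 0.56 without cIHC 22, 0.54 among the 55 cells with Xist reads). Lce6a, Slc10a7, Cd59a and Shtn1 all varied with each other, at 0.53 for Lce6a with Slc10a7, 0.49 for Slc10a7 with Cd59a, 0.46 for Slc10a7 with Shtn1, 0.41 for Lce6a and for Shtn1 with Cd59a, and 0.38 for Lce6a with Shtn1. This grouping was seen in the values. Without cIHC 22 the same pairs ran from 0.35 to 0.51, among the cells with Xist reads from 0.33 to 0.54, and among the 12 cells with Y-linked reads from 0.18 (Cd59a with Shtn1) to 0.60 (Slc10a7 with Shtn1). Akr1cl varied with Zyx (0.42, and 0.54 among the cells with Xist reads), but in the 12 cells with Y-linked reads their rho was -0.09. With the 4 genes of the group around Slc10a7, Akr1cl had only 0.01 to 0.13. Lce6a and Ccn1 had a rho of -0.26, which was 0.091 in the 12 cells with Y-linked reads and -0.089 as Pearson r of log2(CPM + 1). Tpbgl and Slc7a14 lay within the 5th to 95th percentile with each of the other 9 genes.

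**Figure D3:**
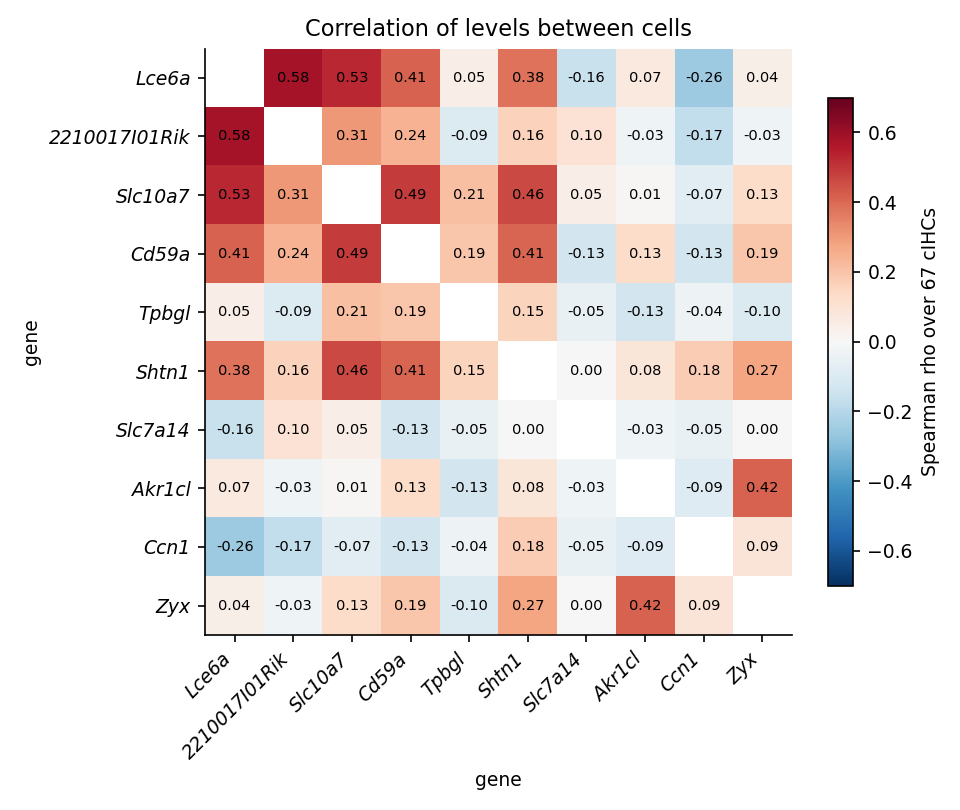
Spearman rho of CPM over 67 cIHCs for each pair of the 10 genes, with red for positive and blue for negative values and the value printed in each square. The squares that join Lce6a, Slc10a7, Cd59a and Shtn1 hold 0.38 to 0.53, the pair of Akr1cl and Zyx holds 0.42, and the rows of Tpbgl and Slc7a14 are pale.

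Outside the set, Slc10a7 and Cd59a each had Calb1, which encodes the calcium buffer calbindin, as the gene with the most similar pattern (0.63 each, of 7285 genes over 67 cells). Calb1 was at 383 pooled CPM in OHCs and 8310 in cIHCs. Next came Sparc (0.61) and H3f3a (0.57) for Slc10a7, and Pebp1 and Panx1 (0.60 each) for Cd59a. Panx1, which encodes a membrane channel, had 0 counts in OHCs and 76.2 pooled CPM in cIHCs. Calb1 is also a neuronal marker and made up 95.4% of the summed level of the 6 spiral ganglion neuron markers. That sum, at 71.1 to 26771 CPM per cIHC and 0 to 2543 per OHC, had rho of 0.63 with Cd59a, 0.61 with Slc10a7 and 0.51 with Lce6a. Its part in these levels was not tested.

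Shtn1 was closest to Ptprq (0.60), a phosphatase gene of the hair bundle, then to Fmn1 (0.56), a formin gene, and to Mindy4b-ps (0.54). Lce6a was closest to Atp8a2, a lipid flippase gene (0.66), then to 2210017I01Rik (0.58) and Upf3b (0.55), and 2210017I01Rik to Lce6a, Ccdc68 (0.53) and Selenow (0.49). The other 5 genes had no gene above 0.52. Ccn1 was closest to Atp11a (0.52), Fam107a (0.49) and Skp1a (0.48), Zyx to Psat1 (0.47), Cnot11 and Cabin1 (0.44 each), and Akr1cl to Pold2 (0.47), Mn1 (0.44) and Gltp (0.43). Tpbgl was closest to Srfbp1, Fam173a (0.44 each) and Msh3 (0.43), and Slc7a14 had Fbxw11 (0.43) and Rdh13 (0.39) among its closest genes.

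Blood and macrophage markers were also set beside the 10 genes. They summed to 3.28 pooled CPM in OHCs and 52.8 in cIHCs, 91.4% of it C1qb, ran from 0 to 337 CPM per cIHC and had their highest rho with Lce6a (0.38). Of the 8 markers, 2 were at 0 in OHCs and 4 in cIHCs. Fibroblast markers were at 216 and 154 pooled CPM and supporting cell markers at 39.2 and 21.9. Both were lower in cIHCs, but within a log2 ratio of 1. The highest rho was 0.26 with Tpbgl for fibroblast markers and 0.11 with Zyx for supporting cell markers. Glia markers were at 14.3 and 8.19 pooled CPM, with their highest rho for Cd59a (0.27). What these markers add to the levels of the 10 genes was not tested. Immediate early genes, which rise when cells are dissociated, summed to 1069 and 1895 pooled CPM, and their highest rho was with Slc10a7 (0.32).

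The relation to Tbx2 differed from gene to gene. Tbx2 had 3 counts in OHCs and was present in every cIHC, from 113 CPM through a median of 584 to 2643. Its counts may hold endogenous and ectopic transcripts, which cannot be told apart here. Slc10a7 had the highest rho with Tbx2 (0.46), followed by Cd59a (0.40), Shtn1 (0.32), Tpbgl (0.31) and Lce6a (0.18). Then came 2210017I01Rik (-0.01), Slc7a14 (-0.03), Ccn1 (-0.04) and Zyx (-0.10), and Akr1cl had -0.31. Slc10a7, Cd59a and Shtn1 lay above the 95th percentile of all genes with Tbx2 (0.32) and Akr1cl below the 5th (-0.28), where 5.01% of genes lie on each side. The median of the 10 genes was 0.09 and that of all genes 0.04.

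Tbx2 itself had a rho of 0.32 with total counts and of -0.61 with the mitochondrial share, and the members that went with Tbx2 had negative values for that share too (Cd59a -0.50, Slc10a7 -0.44, Tpbgl -0.42 and Shtn1 -0.31). Given total counts and genes with reads, the rank partial correlation with Tbx2 was 0.37 for Slc10a7, 0.32 for Cd59a, 0.28 for Shtn1 and -0.27 for Akr1cl. As Pearson r of log2(CPM + 1), the values were 0.42 for Slc10a7, 0.28 for Cd59a, 0.15 for Shtn1 and -0.29 for Akr1cl. The part of the mitochondrial share was not tested. Among the 55 cells with Xist reads, Slc10a7 had 0.58 and Cd59a 0.44, but among the 12 cells with Y-linked reads Slc10a7 had -0.10 and Cd59a 0.28. In those 12 cells Akr1cl had -0.68 and Lce6a 0.59, with few points behind each value. Shtn1 (0.37 and 0.028) and Tpbgl (0.38 and -0.14) differed in the same way between the cells with Xist reads and those with Y-linked reads. Without cIHC 22, Slc10a7 had 0.44, Cd59a 0.39 and Shtn1 0.30, the last under the 95th percentile of 0.32. Over all genes the list ran from Padi1, Gm6831 and Fcor (0.59 each), Igfbp5 and Calb1 (0.58 each) down to Tmcc2 (-0.65), mt-Rnr1 (-0.67), mt-Rnr2 (-0.68), Gpx2 (-0.69) and Slc1a5 (-0.70).

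**Figure D4:**
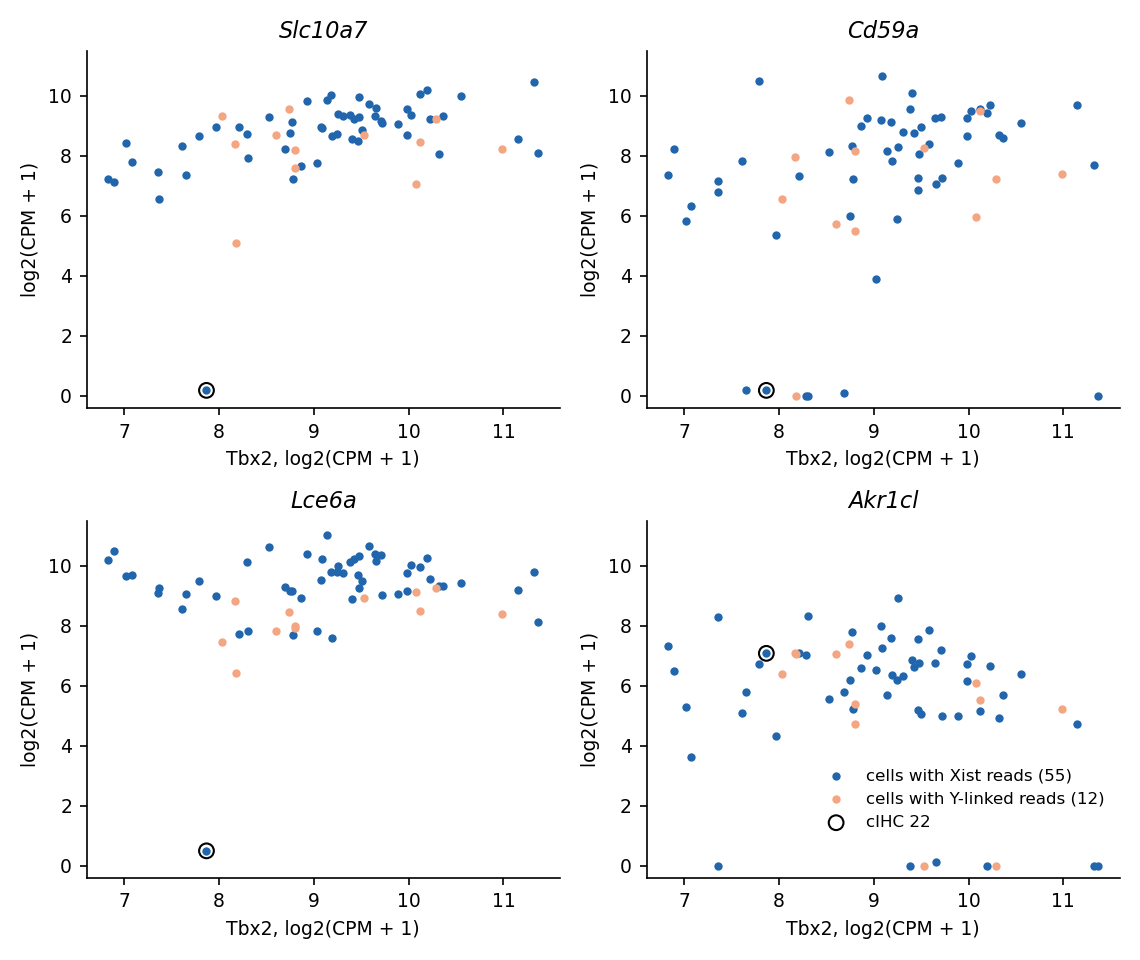
Level of Slc10a7, Cd59a, Lce6a and Akr1cl against Tbx2 in 67 cIHCs, both as log2(CPM + 1), with cells with Xist reads in blue, cells with Y-linked reads in orange and cIHC 22 ringed. Slc10a7 is higher in cells with more Tbx2 (rho 0.46), the Cd59a cells near 0 lie mostly on the side of low Tbx2 with cIHC 44 at the far right, and the cells without Akr1cl lie mostly on the right.

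Ocm, the OHC calcium buffer that a few cIHCs still held, was added as a second measure after the values of cIHC 22 were seen. Its rho with Tbx2 was -0.48. Lce6a (-0.45), Slc10a7 (-0.42), Cd59a (-0.41) and Shtn1 (-0.34) lay below the 5th percentile of all genes with Ocm (-0.28), where 5.01% lie, and the other 6 genes ran from -0.20 to 0.15. Lce6a, which had only 0.18 with Tbx2, thus had the lowest value with Ocm. Among the cells with Xist reads and those with Y-linked reads, the values were -0.40 and -0.31 for Lce6a, -0.36 and -0.54 for Slc10a7, -0.38 and -0.37 for Cd59a, and -0.27 and -0.55 for Shtn1. The sum of all 9 OHC markers gave another order: Ccn1 had -0.32, Shtn1 -0.31, Tpbgl -0.30 and Slc10a7 -0.27, but Cd59a only -0.13 and Lce6a -0.12. With the sum of the 8 IHC markers, Slc10a7 had -0.33, Cd59a -0.31 and Lce6a -0.25, and Ccn1 had 0.24. Without the 5 cells highest in Ocm, the values with Ocm were -0.37 for Lce6a, -0.30 for Slc10a7, -0.26 for Cd59a and -0.28 for Shtn1.

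**Figure D5:**
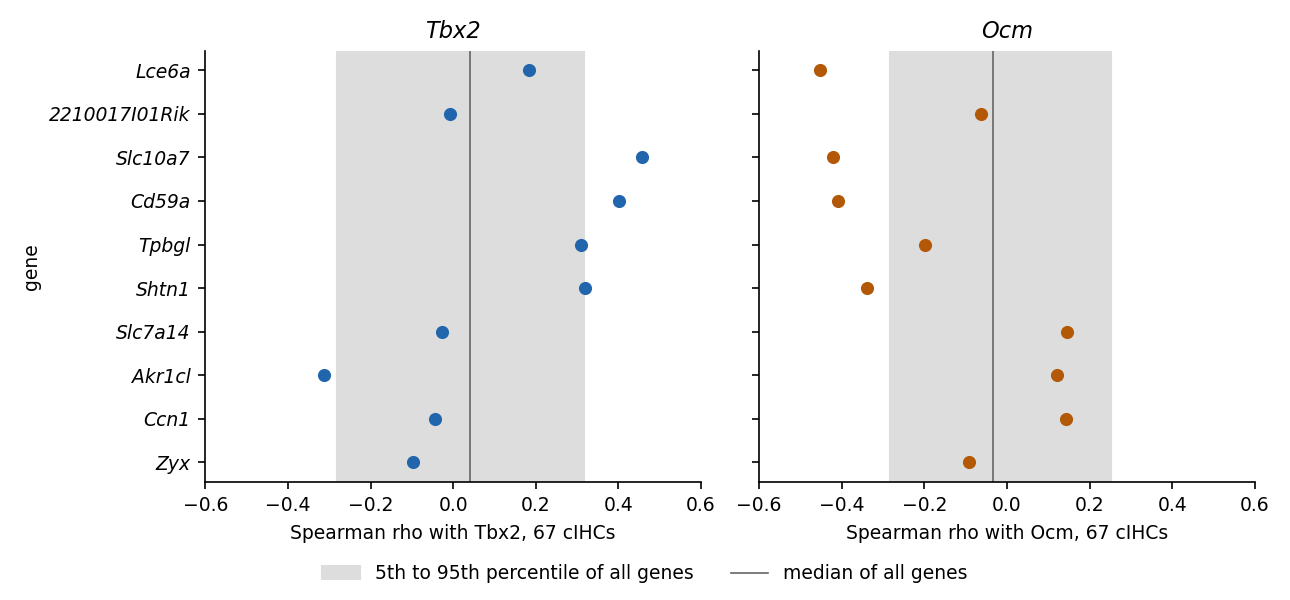
Spearman rho over 67 cIHCs of each of the 10 genes with Tbx2 (left) and with Ocm (right), with the 5th to 95th percentile of all genes compared in grey and their median as a line. Slc10a7, Cd59a and Shtn1 lie right of the grey band for Tbx2 and left of it for Ocm, Akr1cl lies left of it for Tbx2, and Lce6a lies outside it for Ocm alone.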

How the data were processed

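The authors deposited 1 table of read counts per gene and cell, which the values show to be unnormalised counts (whole numbers with a different total in each cell). The submitters' processing notes name HISAT2 2.2.1, StringTie 2.2.1, featureCounts 2.0.1 and the mouse build mm10. The annotation, strand setting and filters are not given in the sources used here. Each cell was assigned to its group by its title, and all 99 cells were used. The 10 genes and all gene and marker lists were chosen with earlier results of these data known.

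Counts were divided by a cell's or a group's total to give CPM, and by the merged exon length of GENCODE M21 to give CPM per kilobase (96.2% of symbols had a length). The floor was 3 counts per group. Intervals for shares of cells are exact binomial (Clopper-Pearson) intervals at 95%. They treat the cells as independent draws, although no animal is named, and do not cover differences between animals. For 60 of 67 cells the interval is 79.7% to 95.7%, and for 57 of 67 it is 74.3% to 92.6%. Spearman rho was computed over 67 cIHCs for 7285 genes, those averaging 10 CPM or more and read in at least 50% of these cells. Family genes count as higher or lower from a log2 ratio of 1 between pooled levels. Beyond the members, the genes named are the neighbours of each member, its 3 most similar genes, the 5 genes at each end for Tbx2, the 2 genes nearest each limit and up to 4 of the highest genes of each family list. Of the genes most similar to Slc7a14, 1 is not reported here. Lpp, Ccn2 and Cfi were named after their values were seen. Alternatives were other scalings (TMM, edgeR 4.0.16 in R 4.3.3), cell subsets, thinning and other correlation measures. No 2 cells had identical counts. The steps were tested on simulated data and run in Python 3.11.15 (scipy 1.17.1, pandas 2.3.3, numpy 2.4.6, and for figures matplotlib 3.10.9).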

Additional observations from a re-analysis of the deposited data

How the results depend on the processing

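The median pooled level of the 10 genes in cIHCs, 281 CPM, was 272 as the mean of cells, 254 as their median, 271 without the highest cell of each gene, 263 with TMM factors, 262 with median-of-ratios scaling and 293 without mitochondrial counts. It was 299 in cells with Xist reads, 223 in cells with Y-linked reads and 285 without cIHC 22. For single genes, 88 such values lay outside the exact Poisson interval of the gene's summed reads and 2 within it. This interval is narrow (748 to 753 CPM for Lce6a). It leaves out the spread between cells and animals, and amplified reads are not independent molecules. The median share of cells with reads, 99.3%, was 90.3% at 10 CPM and 97.7% after thinning. The median rho of the 10 genes with Tbx2, 0.09, was -0.063 in the 12 cells with Y-linked reads, where Slc10a7 with Tbx2 was -0.10, Lce6a with Ccn1 0.091 and Akr1cl with Zyx -0.091; the cause was not tested. Under the other alternatives that median ran up to 0.13, and the median over pairs from 0.04 to 0.10. A rho counted as moved past a difference of 0.1, which single pairs did 12 times with 74 unmoved, and single genes with Tbx2 12 times with 77 unmoved. The 2 pairs and the 1 gene with Tbx2 named above for the 12 cells also passed 0.1 and changed sign. They are not in these counts. Of the family genes, 17 were higher and 5 lower at a log2 ratio of 2, and 38 were higher and 14 lower among 75 genes of at least 1 CPM. The rule's 103 genes became 34 with reads required in 75% of cells and 75 with 0 OHC counts, by construction. Leaving out cIHC 22 or the 5 cells highest in Ocm was chosen after seeing the data. No paired analysis was possible because a cell's number in its title pairs it with no other cell and no result comes from a test. Depth limits the zeros in OHCs to a floor of 0.0124 pooled CPM.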

Other observations

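Other genes of the 103 that met the count rule were as high in cIHCs as members of the set, and they are named here after their values were seen. Cib3, which encodes a calcium- and integrin-binding protein of the mechanotransduction complex, had 0 counts in OHCs and 345 pooled CPM in cIHCs, with reads in 82.1% of cells. Ptprz1, a receptor phosphatase gene, had 0 counts and 330 pooled CPM, with reads in every cIHC. Ntrk2, which encodes the receptor TrkB, had 1 count and 226 pooled CPM, with reads in 98.5% of cIHCs. Kcnh6, a potassium channel gene, had 0 counts and 171 pooled CPM, with reads in 88.1% of cells, and Myl4, a myosin light chain gene, had 1 count and 155 pooled CPM, with reads in 85.1%.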
